A study of Homo sapiens with 6 samples.

Results

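The alpha-arrestins and the glucose-sensing Mondo factors were followed as a set of 8 named genes, of which 7 were listed among the 14987 genes of the deposited table. The rule takes members by gene symbol, and the set was proposed with earlier results of these data known. They are the alpha-arrestins ARRDC1 (ENSG00000197070), ARRDC2 (ENSG00000105643), ARRDC3 (ENSG00000113369) and ARRDC4 (ENSG00000140450), the basic helix-loop-helix factor MLX (ENSG00000108788) and its partners MLXIP (ENSG00000175727) and MLXIPL (ENSG00000009950). TXNIP, the eighth gene, was not analysed here. Messenger RNA of HCT116, an established human colorectal cancer cell line, was sequenced in 6 libraries. NC cells, labelled wild type, and cells in which YAP was knocked down with the constructs shYAP1 or shYAP3 each gave 1 library from control medium and 1 taken 6 h into glucose deprivation. The series addresses what YAP, a transcriptional coactivator of the Hippo pathway, does in the expression response to glucose deprivation. The labels do not say whether the knockdown lines are clones or pools, and they name no replicate cultures.

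MLXIP, also called MondoA, and MLXIPL, also called ChREBP, are transcription factors that pair with MLX. When glucose enters the cell and is phosphorylated, these pairs act in the nucleus at carbohydrate response elements, which are built from paired E boxes. ARRDC4 is one of their best known targets. Alpha-arrestins are adaptors at membranes: their PPxY motifs recruit ubiquitin ligases of the NEDD4 family to receptors and transporters, which are then taken into the cell. ARRDC4 restrains glucose uptake in this way, ARRDC3 acts on integrin beta-4 among others, and ARRDC1 drives the budding of small vesicles from the plasma membrane.

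The sequences upstream of the RefSeq start sites (GRCh38.p14) are shown for the 3 members that passed the test after deprivation, ARRDC4, ARRDC3 and MLXIP, and for MLX, the partner of MLXIP. All 7 members matched a RefSeq promoter entry, with 9 start sites in all. Windows of 250 bases upstream of each start were searched on both strands for the E box CACGTG and the CCAAT box, and the printed stretches end where the first annotated exon begins. Capitals mark these matches, with a CCAAT box on the other strand read as ATTGG. The ARRDC4 stretch is chr15:97960453-97960697 on the plus strand, ARRDC3 chr5:91383360-91383567 on the minus strand, MLX chr17:42566850-42567067 and MLXIP chr12:122078506-122078721, both on the plus strand. Each is written 5′ to 3′ on the strand of its gene.
ARRDC4: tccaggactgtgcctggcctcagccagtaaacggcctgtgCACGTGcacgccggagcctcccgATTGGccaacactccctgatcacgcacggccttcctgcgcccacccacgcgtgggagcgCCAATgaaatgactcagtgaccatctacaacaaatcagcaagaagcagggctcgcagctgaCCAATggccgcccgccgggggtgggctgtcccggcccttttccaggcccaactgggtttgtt
ARRDC3: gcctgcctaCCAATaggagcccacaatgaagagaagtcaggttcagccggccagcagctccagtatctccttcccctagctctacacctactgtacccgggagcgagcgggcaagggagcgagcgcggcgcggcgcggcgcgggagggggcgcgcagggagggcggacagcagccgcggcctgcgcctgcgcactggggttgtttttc
MLX: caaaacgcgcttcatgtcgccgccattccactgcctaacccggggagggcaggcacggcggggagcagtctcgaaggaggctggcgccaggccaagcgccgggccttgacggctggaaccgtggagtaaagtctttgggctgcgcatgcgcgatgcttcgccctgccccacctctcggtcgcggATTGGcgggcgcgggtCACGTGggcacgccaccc
MLXIP: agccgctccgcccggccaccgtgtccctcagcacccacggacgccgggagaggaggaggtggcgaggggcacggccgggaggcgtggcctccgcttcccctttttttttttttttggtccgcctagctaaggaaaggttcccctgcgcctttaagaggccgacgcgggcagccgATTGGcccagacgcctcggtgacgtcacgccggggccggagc

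ARRDC4 held 1 E box, 210 to 205 bases upstream of its start, and 3 CCAAT boxes. An E box occurred in 6.34% of the 35116 RefSeq windows of that length, and 3 or more CCAAT boxes in 2.93%. MLX held 1 E box 50 to 45 bases upstream and 1 CCAAT box. ARRDC3 at its first start site and MLXIP held 1 CCAAT box each, which 32% of windows also held at least once, and no E box. The second ARRDC3 start site had a match to the FOXO site TTGTTTAC 30 to 23 bases upstream, as did 0.846% of windows on either strand. This match lies in the last 54 bases of its window, which are annotated as exon of ARRDC3, and that window is not printed. The carbohydrate response element in an open form, a pair of loose E boxes that can overlap a CACGTG match, was found in 0.458% of windows and in no window of a member. A match describes the letters of a window and not a site of binding.

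The libraries held between 16912634 and 22161075 listed reads. Every listed gene had reads in the NC control library, while 535 to 942 were at 0 in each other library. A gene without reads in the NC control library is therefore not among those listed. The deposited values are scaled read counts, and 1 read was worth 0.0406 to 0.0693, so that the 3 reads a count of 0 allows stood for at most 0.208. YAP1 stood at 154 and 188 in the 2 NC libraries and at 18.2 to 38.2 in the 4 shYAP libraries. Of 7 markers of colorectal epithelium 6 were listed, with a summed value of 2583 to 3714 in control medium and 4316 to 5226 after deprivation. The listed markers of fibroblasts (3 of 6) and endothelium (3 of 5) summed to 8.14 to 10.3 and 3.61 to 4.87 in control medium and to 3.05 to 6.33 and 3.74 to 7.96 after deprivation. The leukocyte markers CD68, CORO1A and HLA-DRA summed to 17.9 to 20.1 in control medium and 22.2 to 38.1 after deprivation, with no overlap. PDGFRB and KDR were at 0 in at least 1 library. The part of these markers in the results was not tested. The reads of shYAP1 and shYAP3 differed by a chi-square per gene of 8.63 in control medium and 66.6 after deprivation, where sampling noise alone gives about 1. No library is labelled as a separate culture of another, so p-values measure only the spread between these libraries, which for the 4 shYAP libraries includes that between constructs.

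Per kb of the longest annotated transcript, the scale on which levels of different genes can be compared, MLX and ARRDC3 were the most abundant members in control medium. MLX stood at 21.6 ± 2.58 per kb and ARRDC3 at 19.7 ± 1.67 per kb (SD, n = 3 libraries), and their ranges overlapped. MLXIP followed at 11.9 ± 1.36 per kb, ARRDC1 at 8.85 ± 0.523 and ARRDC2 at 7.11 ± 0.566 (SD, n = 3), and in control medium neither these nor the members that follow overlapped with a neighbour. MLXIPL, known chiefly from liver, stood at 4.09 ± 0.841 per kb and ARRDC4 last at 2.22 ± 0.700 per kb (SD, n = 3). After deprivation ARRDC3 (26.8 to 44.0 per kb) and MLX (27.1 to 30.0) again overlapped. ARRDC1 (9.58 to 10.6) then stood above MLXIP (4.06 to 8.28), whose range overlapped those of ARRDC2 (7.25 to 8.74) and MLXIPL (2.60 to 4.79), and ARRDC4 again stood lowest (0.766 to 1.21). The longest transcript need not be the one expressed.

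After 6 h without glucose, ARRDC4 and MLXIP fell and ARRDC3 rose, and the other 4 members did not pass the test. These 3 of 7 compare with 32.1% of the 12263 genes tested (16.5% higher and 15.6% lower), called by limma at an adjusted p under 0.05 over both genotypes. Scaled to listed reads, 749 genes were higher and 3802 lower, against 2018 and 1918 with the values as deposited. The values of the media did not overlap for 5 members, ARRDC1, ARRDC3, ARRDC4, MLX and MLXIP, against 50.6% of genes tested, and of these ARRDC4 and MLXIP lay lower after deprivation, as did 23.8% of genes tested. In a whole culture, fewer cells with a transcript and less of it per cell cannot be told apart.

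**Figure D1:**
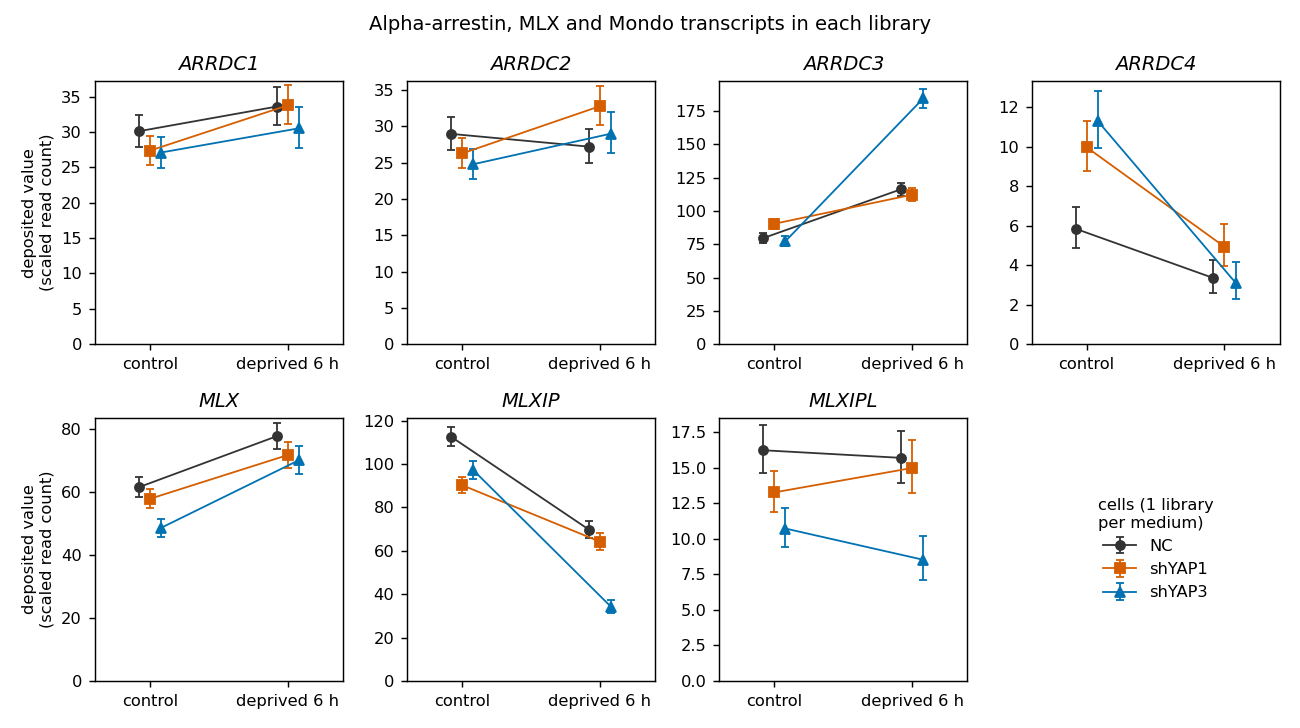
Deposited value (scaled read count, linear axis from 0) of each of the 7 genes in control medium and after 6 h without glucose. Each point is 1 library and each line joins the libraries of 1 cell line; bars are exact 95% Poisson intervals of the read count and cover counting error only. ARRDC4 and MLXIP are lower after deprivation in all 3 cell lines, and ARRDC3 and MLX are higher in all 3.

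ARRDC4, the arrestin that restrains glucose uptake, measured 5.85 in the NC library in control medium, 9.98 with shYAP1 and 11.3 with shYAP3. Without glucose the corresponding values were 3.35, 4.94 and 3.12. Every deprived library thus lay below every control library. ARRDC4 is a low transcript, counted with 133, 246 and 249 reads in control medium and 63, 85 and 45 reads after deprivation. The exact 95% Poisson interval of its value was 4.90 to 6.93 in NC control cells and 2.58 to 4.29 in NC deprived cells, so that these intervals did not overlap. Such intervals cover counting error only and not the spread between libraries. Of the control level, a fraction of 0.573 remained in NC cells, 0.495 with shYAP1 and 0.276 with shYAP3. On the log2(value + 1) scale, which understates the change of low genes, ARRDC4 fell by 1.04 (SE 0.20, limma adjusted p = 0.0068). On that scale its fold was 0.486, with a 95% interval of 0.357 to 0.663. In order of this change ARRDC4 ranked 245 from the lowest of the 12263 genes tested. It passed in all 16 alternatives, with a highest adjusted p of 0.045 in limma without the shYAP3 control library. Without the shYAP3 deprived library the log2 change was −0.83. The alternatives are not independent of each other. Without either NC library the log2 change was −1.23, the same as in the shYAP cells alone, and without the filter or the trend it stayed at −1.04.

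MLXIP, the Mondo factor with the higher level in these cells, measured 113 in the NC library in control medium, 90.3 with shYAP1 and 97.3 with shYAP3. Without glucose the corresponding values were 69.8, 64.2 and 34.2, below every control library in each case. The shYAP3 deprived library was the lowest of the 6. MLXIP fell by 0.88 on the log2(value + 1) scale (SE 0.21, limma adjusted p = 0.016), to 0.542 of its control level (95% interval 0.388 to 0.759). Its longest transcript, of 8427 bases, is the longest among the members. With length and GC trends removed from each library, a setting chosen after seeing the data, its log2 change was −0.40 (limma adjusted p = 0.019). Leaving out the deprived shYAP3 cells gave −0.60 (limma adjusted p = 0.00049). MLXIP did not pass without the NC control (adjusted p = 0.065), NC deprived (0.064), shYAP1 control (0.070) or shYAP3 control library (0.080), nor with NC and shYAP responses weighted equally (−0.83, adjusted p = 0.066), all in limma. Without either NC library the fit rests on the 4 shYAP libraries alone.

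MLX, the shared partner, measured 61.5 in the NC library in control medium, 57.8 with shYAP1 and 48.5 with shYAP3, and 77.6, 71.7 and 70.0 without glucose. The deprived libraries lay above the control libraries with no overlap, but the log2 change of 0.39 (SE 0.13, 95% interval 0.09 to 0.68) did not pass (limma adjusted p = 0.051). It passed without the shYAP3 deprived library (adjusted p = 0.011) and with length and GC trends removed (adjusted p = 0.015), and it was 0.08 when libraries were scaled to listed reads (adjusted p = 0.67), all in limma. An exon of MLX overlaps one of PSMC3IP, on the other strand, by 710 bases in the annotation, and the sources used here give no strand setting, so reads of the pair may be mixed. PSMC3IP stood at 17.8, 19.4 and 16.5 in control medium and 18.7, 24.2 and 31.1 after deprivation in NC, shYAP1 and shYAP3 cells.

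MLXIPL, the carbohydrate response factor of liver, measured 16.2 in the NC library in control medium, 13.3 with shYAP1 and 10.7 with shYAP3, and 15.7, 15.0 and 8.53 without glucose. The media overlapped, and the cell lines differed in direction. The log2 change was −0.06 (95% interval −0.52 to 0.40, limma adjusted p = 0.84).

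ARRDC3, the most abundant alpha-arrestin per kb, measured 79.6 in the NC library in control medium, 90.3 with shYAP1 and 77.2 with shYAP3. Without glucose the corresponding values were 116, 112 and 184, each above every control library. The increase was 1.46-fold in NC, 1.24-fold in shYAP1 and 2.39-fold in shYAP3 cells. ARRDC3 rose by 0.70 on the log2(value + 1) scale (SE 0.19, limma adjusted p = 0.024), or 1.62-fold with a 95% interval of 1.20 to 2.19. At 37.6% its transcript has the lowest GC content among the members. Without the shYAP3 deprived library the log2 change was 0.47 (limma adjusted p = 0.0031). It was 0.42 with length and GC trends removed (adjusted p = 0.021) and 0.39 when scaled to listed reads (adjusted p = 0.091), and without the NC control, NC deprived, shYAP1 control or shYAP3 control library it did not pass (adjusted p = 0.081, 0.081, 0.084 and 0.12), all in limma. Nor did it pass with NC and shYAP responses weighted equally (0.66, limma adjusted p = 0.086).

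ARRDC1, the vesicle-budding arrestin, measured 30.1, 27.3 and 27.1 in control medium and 33.6, 33.7 and 30.5 without glucose (NC, shYAP1, shYAP3). The lowest deprived value lay just above the highest control value. Its log2 change of 0.20 (95% interval −0.09 to 0.50) did not pass (limma adjusted p = 0.25).

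ARRDC2, a less studied member of the family, measured 28.9, 26.2 and 24.8 in control medium and 27.2, 32.8 and 29.0 without glucose (NC, shYAP1, shYAP3). It was lower after deprivation in NC cells and higher in both shYAP lines. The log2 change over all cells was 0.15 (95% interval −0.18 to 0.47, limma adjusted p = 0.45). With length and GC trends removed ARRDC1 (0.36, adjusted p = 0.023) and ARRDC2 (0.35, adjusted p = 0.043) passed in limma, whereas scaled to listed reads their changes were −0.09 and −0.15. That scaling set the median of all genes tested at −0.24, against 0.05 as deposited.

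**Figure D2:**
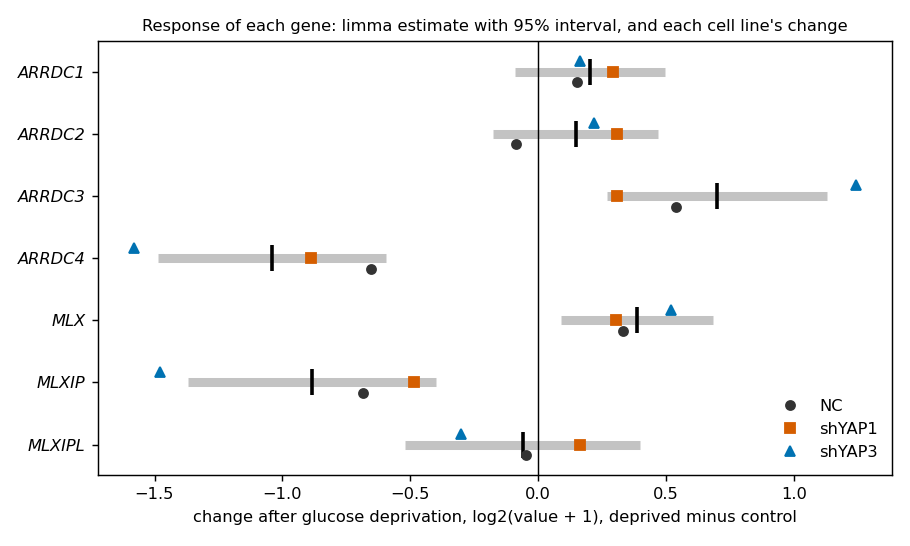
Change after glucose deprivation of each gene on the log2(value + 1) scale. The vertical tick is the limma estimate over all 6 libraries, the grey bar its 95% interval, and the points the change in NC, shYAP1 and shYAP3 cells, 1 library per medium each. The bars of ARRDC3, ARRDC4, MLX and MLXIP leave out 0, and the shYAP3 point is the farthest from 0 for ARRDC3, ARRDC4, MLX, MLXIP and MLXIPL.

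Ratios between members within a library do not depend on how the library was scaled, but can carry trends with transcript length and GC content. With those trends removed, the log2 change was −0.40 instead of −0.88 for MLXIP and 0.42 instead of 0.70 for ARRDC3. For MLXIPL it was 0.10 instead of −0.06, while ARRDC4 (−1.10 instead of −1.04) and MLX (0.39 in both) moved less. The ratios were not recomputed without these trends. The pairs were chosen after the values were seen, and the ratios are a description with no test. Per kb, ARRDC3 stood 6.63 to 13.2 times above ARRDC4 in control medium and 22.1 to 57.5 times above it after deprivation. The ratio changed 2.55-fold in NC, 2.51-fold in shYAP1 and 8.66-fold in shYAP3 cells. MLX stood 1.62 to 2.08 times above MLXIP per kb in control medium and 3.62 to 6.66 times after deprivation. MLXIP stood 2.65 to 3.53 times above MLXIPL per kb in control medium and 1.56 to 1.73 times after deprivation. The ratios of the 3 pairs did not overlap between media. For ARRDC3 to ARRDC4 and MLX to MLXIP this follows from the single genes, which moved in opposite directions without overlap. Of the summed level of the 4 arrestins per kb, ARRDC3 made up 50.5%, 54.4% and 50.8% in control medium (NC, shYAP1, shYAP3) and 59.8%, 56.6% and 70.9% without glucose. The share of ARRDC4 was 3.82%, 6.19% and 7.65% in control medium and 1.78%, 2.56% and 1.23% without glucose.

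**Figure D3:**
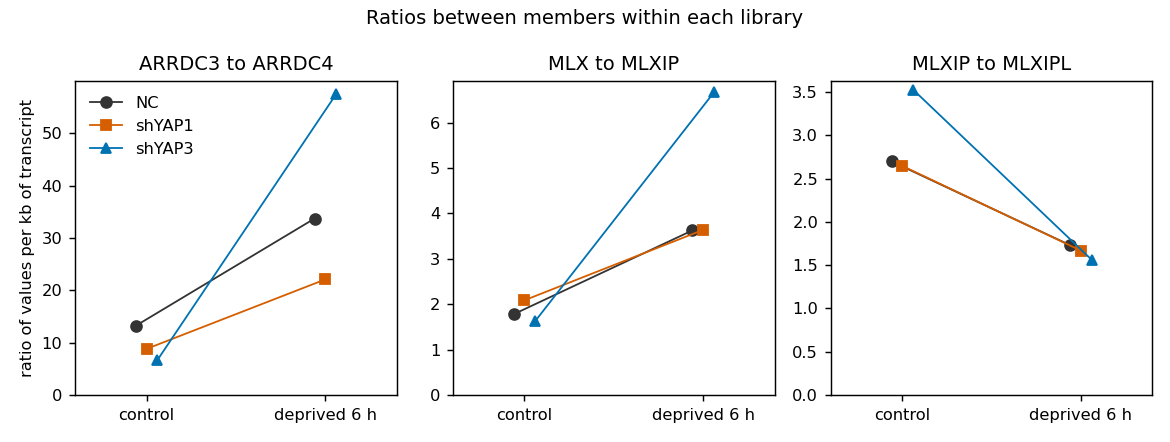
Ratio of the values per kb of transcript of 2 members within each library, in control medium and after 6 h without glucose (linear axes from 0). Points are single libraries and lines join the libraries of 1 cell line. ARRDC3 to ARRDC4 and MLX to MLXIP are higher, and MLXIP to MLXIPL lower, after deprivation in all 3 cell lines.

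With YAP knocked down, none of the 7 members passed the test. Over both media 0.00815% of the genes tested passed in limma, which is 1 gene, YAP1 itself, and 898 genes had an unadjusted p under 0.05. ARRDC4 was 1.71 and 1.93 times its NC level in shYAP1 and shYAP3 cells in control medium, and 1.47 and 0.930 times after deprivation. The Poisson intervals of both shYAP control libraries (8.77 to 11.3 and 9.95 to 12.8) lay above that of the NC control library, but cover counting error only. The log2 difference of ARRDC4 over both media was 0.47 (SE 0.21, 95% interval −0.00018 to 0.95, limma adjusted p = 0.58). It was 0.18 without the NC control library and 0.76 without the NC deprived library. MLXIP (−0.41, 95% interval −0.93 to 0.10) and MLXIPL (−0.43, 95% interval −0.91 to 0.06) had the same adjusted p of 0.58 in limma. Leaving out the deprived shYAP3 cells moved them to −0.20 and −0.26, and MLXIP was also −0.26 without the NC deprived library. MLXIP stood below the NC library of the same medium in each of the 4 shYAP libraries, at 0.802 and 0.864 of NC in control medium and 0.920 and 0.490 after deprivation for shYAP1 and shYAP3. MLXIPL did so as well, at 0.817, 0.661, 0.955 and 0.543 in that order. The log2 differences of ARRDC1 (−0.10), ARRDC2 (−0.0012), ARRDC3 (0.19) and MLX (−0.17) had adjusted p from 0.63 to 1.0 in limma. That of ARRDC3 was 0.02 without the deprived shYAP3 cells, 0.07 without the NC deprived library, 0.30 without the NC control library and 0.32 without the deprived shYAP1 cells.

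The response to deprivation was not shown to differ between NC and shYAP cells for any member. 0% of genes passed this test in limma, in which NC cells have 1 library per medium. There were 111 genes at an unadjusted p under 0.05 in limma, and edgeR called 0 and DESeq2 1. The difference, shYAP minus NC, was −0.58 for ARRDC4 (95% interval −1.56 to 0.40), 0.35 for ARRDC2 (−0.38 to 1.08), −0.30 for MLXIP (−1.48 to 0.88) and 0.24 for ARRDC3 (−0.81 to 1.28), each with a limma adjusted p of 1.0. For ARRDC1 (0.08), MLX (0.08) and MLXIPL (−0.02) it was smaller. These intervals include changes of 2-fold in at least 1 direction for ARRDC4, ARRDC2, MLXIP, ARRDC3 and MLXIPL. Without the shYAP1 deprived library, which leaves shYAP3 alone to stand for deprived shYAP cells, the differences of ARRDC4 (−0.84, adjusted p = 0.024), ARRDC3 (0.59, adjusted p = 0.012) and MLXIP (−0.74, adjusted p = 0.0012) passed in limma, as did 2735 genes in all in that fit. Without the shYAP3 deprived library they were −0.32, −0.12 and 0.14 and did not pass.

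In the shYAP cells alone, with 2 libraries per medium, 11.5% of genes passed in limma (5.62% higher and 5.9% lower) and ARRDC4 was the member among them. Its log2 change was −1.23 (SE 0.24, adjusted p = 0.033), and leaving out a control library, shYAP1 or shYAP3, raised the adjusted p to 0.051 and 0.13 in limma. Without the filter ARRDC4 did not pass either (adjusted p = 0.11), in a limma fit that called 0 genes. MLXIP (−0.98, adjusted p = 0.064) and ARRDC3 (0.78, adjusted p = 0.081) did not pass in limma. They did with the construct as a replicate block (limma adjusted p = 0.00085 and 0.011), fitted to the 4 shYAP libraries alone. That fit called 3348 genes, against 1412 without the block. Leaving out the deprived shYAP3 cells, MLXIP was at −0.54 and ARRDC3 at 0.42 (limma adjusted p = 7.9e-05 and 0.0025), in a fit that called 5295 genes. The 2 constructs differed in 0.155% of genes (0.0897% lower with shYAP3) and in no member. The largest log2 difference among members, shYAP3 minus shYAP1, was −0.51 for MLXIPL, a fold of 0.700 (95% interval 0.499 to 0.981, unadjusted p = 0.038, limma adjusted p = 0.88).

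**Figure D4:**
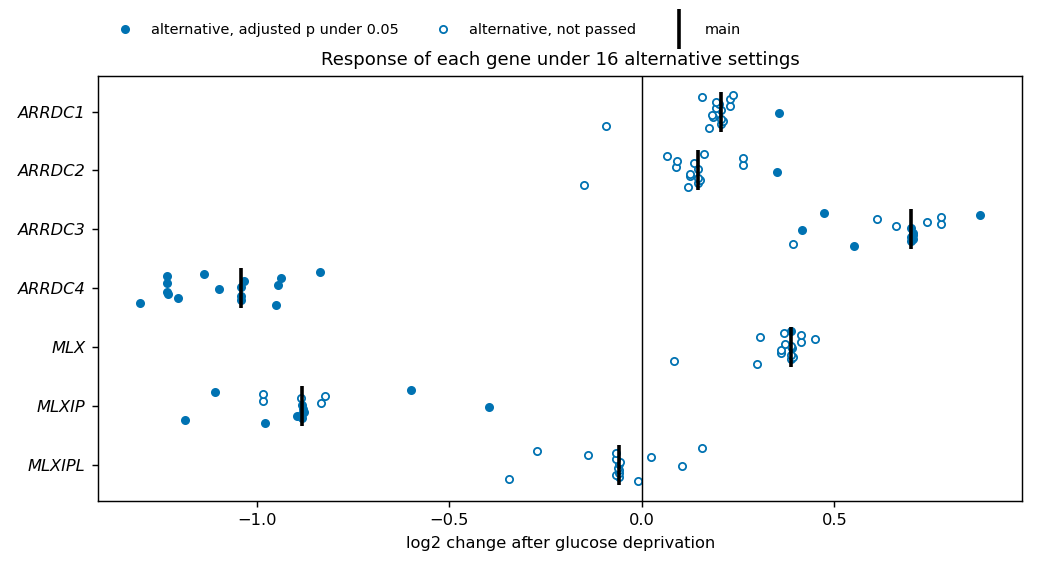
Log2 change after glucose deprivation of each gene as reported (black tick) and under 16 alternative settings (circles), filled where the adjusted p was under 0.05. ARRDC4 passed under all 16, MLXIP and ARRDC3 kept 1 direction under all 16 but passed under 11 and 10, and the changes of ARRDC1, ARRDC2 and MLXIPL lie on both sides of 0.

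Genes that work with these factors were taken from lists chosen with earlier results of these data known. Of 16 targets of the Mondo factors 12 were tested, and 7 fell and 2 rose after deprivation, with a median log2 change of −0.63 against 0.05 for all genes tested, of which 15.6% fell and 16.5% rose. ARRDC4 is one of these 12. PNPLA3, a lipid droplet protein, measured 11.7, 12.4 and 9.27 in control medium and 4.42, 3.72 and 3.12 without glucose (NC, shYAP1, shYAP3), and fell by 1.35 (SE 0.16, limma adjusted p = 0.0013). ACACB, an acetyl-CoA carboxylase, fell by 0.77 (limma adjusted p = 0.012). KLF10, a Krüppel-like transcription factor, rose 2.02-fold (limma adjusted p = 0.0065) and is also known to respond to TGF-beta. Several members of this list are also targets of SREBP. Of the 7 that fell, only ARRDC4 and PNPLA3 kept their calls in each fit lacking a shYAP control library. With length and GC trends removed 5 of 11 fell and 2 rose (median −0.31), while 17.2% of all genes fell and 20.5% rose. Scaled to listed reads 8 of 12 fell and 1 rose (median −0.94, with −0.24 for all genes), while 31% of all genes fell and 6.11% rose. Leaving out the deprived shYAP3 cells 7 fell and 3 rose (median −0.48), while 19.8% of all genes fell and 23.4% rose. Without either NC library KLF10 did not pass (highest limma adjusted p = 0.051), and ACACB failed in the same fits and in those lacking a shYAP control library (highest 0.070).

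Of the MAX and MLX network of partner and rival factors 9 genes were tested, and 2 rose, 2 fell and 5 did not pass, shares near those of all genes (16.5% higher and 15.6% lower). MXD1, a MYC antagonist that can pair with MAX and MLX, measured 10.7, 12.1 and 7.95 in control medium and 42.5, 49.8 and 28.3 without glucose (NC, shYAP1, shYAP3). It rose 3.61-fold (limma adjusted p = 0.0013). MYC rose 1.80-fold (adjusted p = 0.0082), while its relative MYCL fell to 0.506 of its control level (adjusted p = 0.0034) and MGA, a MAX partner, to 0.618 (adjusted p = 0.011), all in limma. The median change of the network was 0.12 against 0.05 for all genes, and it was −0.18 against −0.24 when scaled to listed reads. MYC did not pass without either NC library (highest limma adjusted p = 0.068), nor MGA without either shYAP control library (highest 0.080).

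Among the NEDD4 family ligases that alpha-arrestins recruit, 3 of 9 rose and 0 fell. Of all genes 16.5% rose and 15.6% fell, or 32.1% in either direction. The median log2 change was 0.09 against 0.05 for all genes. With length and GC trends removed 5 of 9 rose and 0 fell (median 0.35 against 0.04), where 20.5% of all genes rose and 17.2% fell. Scaled to listed reads 0 rose and 3 fell (median −0.16 against −0.24). ITCH rose 1.57-fold, NEDD4 1.55-fold and SMURF2 1.47-fold (limma adjusted p = 0.016, 0.030 and 0.020), and WWP2 had a log2 change of −0.44 (adjusted p = 0.080). Of the other arrestin-fold genes 5 were tested, and 1 rose and 1 fell, or 0 and 2 when scaled to listed reads, where 6.11% of all genes rose and 31% fell. ARRB1, the receptor-desensitizing beta-arrestin 1, measured 30.9, 25.4 and 29.3 in control medium and 12.5, 13.3 and 15.2 without glucose (NC, shYAP1, shYAP3), and fell, with a fold of 0.498 (limma adjusted p = 0.0026). VPS26A, a retromer subunit with an arrestin fold, rose 1.70-fold (limma adjusted p = 0.014; 0.052 scaled to listed reads), while ARRB2 (log2 0.25, adjusted p = 0.18) and VPS26B (−0.19, adjusted p = 0.32) did not pass. ITCH, NEDD4, SMURF2 and VPS26A lost their calls in each fit lacking an NC or a shYAP control library (highest limma adjusted p = 0.095, 0.14, 0.13 and 0.075).

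Of the 4 ESCRT genes that serve ARRDC1 budding 1 rose, where 16.5% of all genes tested did. Scaled to listed reads 0 of the 4 passed, where 6.11% of all genes rose and 31% fell. TSG101, which ARRDC1 binds, rose 1.62-fold (limma adjusted p = 0.012, or 0.056 scaled to listed reads). VPS4A (log2 −0.11), VPS4B (−0.01) and PDCD6IP (0.09) did not pass. Among cargo, SLC2A3, a glucose transporter with a near-identical copy (SLC2A14) that may share its reads, measured 40.6, 57.4 and 33.3 in control medium and 156, 95.7 and 79.8 without glucose (NC, shYAP1, shYAP3) and rose 2.45-fold (limma adjusted p = 0.0067). SLC2A1 (log2 0.42, adjusted p = 0.076) and ITGB4 (0.24, adjusted p = 0.56) did not pass in limma. In the thioredoxin system 2 of 5 genes rose, against 16.5% of all genes, and 0 when scaled to listed reads, against 6.11%. TXN2 rose 1.55-fold and TXNRD1 1.43-fold (limma adjusted p = 0.017 and 0.034). TXN (log2 0.61, limma adjusted p = 0.060) and TXNRD2 (0.12, limma adjusted p = 0.53) did not pass. Leaving out the deprived shYAP3 cells 3 of 3 cargo genes and 3 of 5 genes of the thioredoxin system rose, in a fit where 23.4% of all genes did, and with length and GC trends removed 3 of 3 cargo genes rose, against 20.5% of all genes. SLC2A3 lost its call in the fits lacking an NC library (highest limma adjusted p = 0.056), and TSG101, TXN2 and TXNRD1 lost theirs there and in those lacking a shYAP control library (highest 0.087, 0.097 and 0.16).

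The genes with the most similar profiles over the 6 libraries were found by the Euclidean distance between centred log2(value + 1) profiles. For ARRDC4 they were ARHGEF37 (distance 0.451, Pearson r = 0.953), TMEM170B (0.487, r = 0.945) and POTEF (0.526, r = 0.981), against a length of 1.48 for the ARRDC4 profile itself. POTEF belongs to a family of near-identical copies, and its reads may be shared. For ARRDC3 they were HNRNPA1 (0.114, r = 0.994), EXOSC8 (0.119, r = 0.996) and SNW1 (0.132, r = 0.995), against 1.04 for ARRDC3, and HNRNPA1 has many processed pseudogenes. For ARRDC2 they were TRPV3 (0.0766, r = 0.968), TEX264 (0.0768, r = 0.970) and TUFM (0.0856, r = 0.960), against 0.302. These correlations rest on 6 points that share library and depth, among 12263 genes.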

How the data were processed

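Gene expression was measured by RNA-seq in 6 libraries of HCT116 cells. The authors deposited 1 table with a signal value per gene and library, a scaled read count that is not divided by gene length; the scaling is not given in the sources used here. Bowtie2, BWA and hg19 are named in the submitters' processing notes, with no role or version. The low values were whole multiples of what 1 read is worth in each library, and 100% of values came out whole (tolerance 0.01 reads), so whole reads were recovered. The libraries held 16912634 to 22161075 listed reads, and intervals and floors cover counting error only.

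On the scale log2(value + 1), limma 3.58.1 with its trend option (R 4.3.3) was fitted to the 12263 genes that reached 1 in no fewer than 2 libraries; tests were two-sided, with Benjamini-Hochberg adjustment over all of them and a threshold of 0.05. The response and the effect of knockdown came from an additive model of genotype and medium, and the difference of the response and the response in shYAP cells from 1 mean per genotype and medium. The constructs were compared in the 4 shYAP libraries with medium as covariate. edgeR 4.0.16 (quasi-likelihood, TMM) called 3848 genes in the response on the recovered reads, and DESeq2 1.42.0 called 4140. Other alternatives were quantile normalization, scaling to listed reads, no filter, a pseudocount of 0.1, no trend, the mean of the genotypes' responses (group contrast), each library left out, and, chosen after seeing the data, removal of length and GC trends. Scripts were tested on simulated data.

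The construct names, given in the labels in both media, pair the shYAP libraries; the difference between constructs had a correlation of 0.10 between media across genes. Lengths and GC content of the longest transcript came from GENCODE v29 for 14686 of 14987 genes. Promoters came from RefSeq (GRCh38.p14). Reads of overlapping genes could not be assigned by strand: exons of ARRDC1, ARRDC2 and ARRDC3 overlap antisense genes by 29, 442 and 145 bases. An exon of ARRDC1 also overlaps one of AL590627.2, on the same strand, by 92 bases. Members and gene lists were chosen with earlier results of these data known; of each list at most 4 tested genes, those with the smallest adjusted p in the response, are named. A cargo gene and a leukocyte marker are not reported here.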

Additional observations from a re-analysis of the deposited data

How the results depend on the processing

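With the values as deposited 3936 genes passed in the response to deprivation, and 1607 did when the responses of NC and shYAP cells were weighted equally. Without 1 library the count ran from 1086 to 5306, and it lay between 1086 and 1416 in the fits lacking an NC or a shYAP control library. For knockdown, DESeq2 called 7 genes, and leaving out 1 library gave 0 to 5. For the difference of the response, DESeq2 called 1 gene and the replicate block by construct 4, and leaving out 1 shYAP library gave 1 to 2735 (2735 without shYAP1 deprived); with an NC library left out it could not be fitted. In shYAP cells 1412 genes passed in limma, against 3147 scaled to listed reads, 0 without the filter, 2525 in DESeq2, 2823 with length and GC trends removed and 3348 with the replicate block; leaving out 1 library gave 234 to 7827, and 4444 genes had an unadjusted p under 0.05. Between constructs 19 passed in limma, against 4 scaled to listed reads, 0 without the filter, 1 in DESeq2 and 131 with length and GC trends removed, with 693 at an unadjusted p under 0.05. The replicate block changed the calls of ARRDC3 and MLXIP in shYAP cells and no other call of a member. Fits without 1 library assume that a lone library varies like the others, and none were run for the constructs. The cause of these shifts was not tested.

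Directions that turned belonged to log2 values that did not pass as reported. Scaled to listed reads, the response was −0.0942 for ARRDC1 and −0.151 for ARRDC2 (in shYAP cells −0.121 and −0.0859), and the difference of the response was −0.0790 for ARRDC1 and −0.0777 for MLX. With length and GC trends removed, the response of MLXIPL was 0.104 (0.0939 in shYAP cells), the effect of knockdown was 0.0187 for ARRDC1, 0.136 for ARRDC2 and −0.0184 for ARRDC3, and the difference between constructs was 0.0714 for ARRDC1 and 0.0226 for ARRDC2. MLXIPL was at 0.0011 in shYAP cells with quantile normalization, and its difference of the response was 0.0354 there and 0.0199 in edgeR. Without 1 library, the response of MLXIPL ran from −0.272 to 0.155 (in shYAP cells −0.441 to 0.306) and the effect of knockdown on ARRDC2 from −0.177 to 0.174. The difference of the response then ran from −0.120 to 0.592 for ARRDC3, −0.0427 to 0.204 for MLX, −0.744 to 0.144 for MLXIP and −0.396 to 0.351 for MLXIPL.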
